A study of Drosophila melanogaster with 2 samples.

Results

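Of the 2198 Bowl-eGFP peaks in the pooled list, 498 had a summit 1 to 500 bp upstream of a gene start and not between close divergent starts. This was 22.7% of the list (95% Wilson interval 21.0 to 24.5). A peak belonged to this class when its summit lay upstream, on the gene's own strand, of the nearest transcription start of a protein-coding gene. Summits between the starts of 2 genes that point away from each other and lie at most 1000 bp apart were left out. Position alone, and not signal, decided which peaks of the list were members. They were placed at 485 distinct starts of 459 genes. For 13 members, starts of more than 1 gene were equally near, and a fixed order decided which gene was credited.

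The data came from chromatin immunoprecipitation and sequencing (ChIP-seq) of whole Drosophila melanogaster embryos aged 0 to 24 h. The embryos were of a transgenic strain with an inserted bowl gene fused to eGFP, and an antibody against GFP pulled down the fusion protein. Both samples are biological replicates of 1 group and differ in no labelled condition. Whole embryos of all ages were pooled, so a peak cannot be assigned to a cell type or stage, the labels do not say what drives the transgene, and the control was not analysed here.

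Bowl is a zinc-finger protein of the odd-skipped family, which acts in segmentation, gut patterning and leg joint formation, and the protein Lines regulates its level in the nucleus. Fly promoters fall into broad kinds: many housekeeping genes carry the DNA replication-related element (DRE) bound by DREF, or the element called motif 1, and are often arranged head to head. Many developmental genes instead carry GAGA repeats, bound by GAGA factor (the product of Trithorax-like), a TATA box or an initiator at the start.

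Peaks were cut by the authors from longer ranked lists of candidate regions at an irreproducible discovery rate (IDR) of 0.01, that is a −log10 IDR of at least 2. Of the candidates placed upstream by the same rule, 6203 stayed under that value and are called failing candidates here. The word ACAGTGG, which a ranking of words over all peaks of these data had brought up, lay within 100 bp of 47 member summits. Strong member sites are shown because the word kept one direction towards the summit. Each reads 5′ to 3′ along the strand that holds ACAGTGG, in the RefSeq Release 6 genome (dm6), with the word in capitals.
CG1635 (chr3R:31588437-31588463, plus strand): acttctgtaaACAGTGGgctcaagttg
RluA-1 (chr2L:10474599-10474625, minus strand): tcaccactatACAGTGGaccaaaaatg
Rtnl1 (chr2L:4997565-4997591, plus strand): caagcagtgcACAGTGGgcacgccagc
MFS10 (chrX:13131405-13131431, minus strand): aagaggggtaACAGTGGcgtagttgtg
PAN3 (chr3L:3081322-3081348, plus strand): cagcagaggcACAGTGGaacgaactag
CG31808 (chr2L:16716375-16716401, minus strand): tgcatcgtgcACAGTGGgagaaaagaa
Ptpmeg2 (chrX:9650858-9650884, plus strand): agaggagagtACAGTGGgtcaaacagg
mrt (chr3R:27281123-27281149, plus strand): caagattcgcACAGTGGttgggggttg
The summit lay between 35 and 89 bp from the centre of the word in these 8 sites, and always on the side of its GTGG end.

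At some of these genes, of which the 3 strongest are shown, a second copy of the word faced the first across the summit. The whole stretch is printed to show both copies and their spacing. Each is on the gene's strand in dm6, with the copies in capitals, so that the second one appears as its reverse complement.
CG1635 (chr3R:31588437-31588647, plus strand): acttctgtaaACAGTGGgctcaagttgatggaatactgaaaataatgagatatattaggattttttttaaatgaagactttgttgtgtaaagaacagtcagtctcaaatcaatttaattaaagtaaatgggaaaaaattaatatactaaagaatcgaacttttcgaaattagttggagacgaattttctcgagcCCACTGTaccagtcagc
RluA-1 (chr2L:10474410-10474625, minus strand): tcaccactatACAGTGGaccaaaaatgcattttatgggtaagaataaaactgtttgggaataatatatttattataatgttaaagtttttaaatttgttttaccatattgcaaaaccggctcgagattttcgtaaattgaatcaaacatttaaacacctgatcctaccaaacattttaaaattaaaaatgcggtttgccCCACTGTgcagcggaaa
Rtnl1 (chr2L:4997565-4997761, minus strand): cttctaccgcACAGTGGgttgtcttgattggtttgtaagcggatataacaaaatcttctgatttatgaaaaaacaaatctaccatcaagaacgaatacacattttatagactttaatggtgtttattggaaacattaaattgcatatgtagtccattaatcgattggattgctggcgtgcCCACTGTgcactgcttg
The strongest members of all did not hold the word. The summit windows of CG14100 and CG18549, again on the gene's strand, contained none of the 10 words searched for apart from TATAAA and TAATTA, which were not marked.
CG14100 (chr3L:19590525-19590719, minus strand): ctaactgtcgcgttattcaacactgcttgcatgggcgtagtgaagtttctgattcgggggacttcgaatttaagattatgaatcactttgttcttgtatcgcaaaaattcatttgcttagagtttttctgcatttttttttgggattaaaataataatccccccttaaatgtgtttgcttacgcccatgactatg
CG18549 (chr3R:12449078-12449278, plus strand): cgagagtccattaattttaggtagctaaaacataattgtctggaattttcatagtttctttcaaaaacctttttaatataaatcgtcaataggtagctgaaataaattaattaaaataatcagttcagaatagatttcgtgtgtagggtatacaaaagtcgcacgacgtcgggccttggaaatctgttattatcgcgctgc

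GAGAGAG, the repeat that GAGA factor binds, also lay at some members. Windows of 3 strong members that carry it and meet no annotated UTR are shown on the gene's strand in dm6, where the capitals mark the repeat (read here as CTCTCTC) and, at CG2246, the overlapping word AGAGAGCG.
Btk (chr2L:8277752-8277952, minus strand): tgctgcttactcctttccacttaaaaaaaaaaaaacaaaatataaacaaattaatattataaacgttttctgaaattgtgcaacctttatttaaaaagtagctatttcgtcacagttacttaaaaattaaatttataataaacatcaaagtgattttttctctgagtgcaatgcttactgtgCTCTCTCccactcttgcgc
CG1907 (chr3R:29618767-29618967, plus strand): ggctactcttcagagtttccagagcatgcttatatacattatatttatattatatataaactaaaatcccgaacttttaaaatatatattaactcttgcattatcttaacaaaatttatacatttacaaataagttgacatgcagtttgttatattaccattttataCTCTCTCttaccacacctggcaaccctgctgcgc
CG2246 (chr3R:30600605-30600805, minus strand): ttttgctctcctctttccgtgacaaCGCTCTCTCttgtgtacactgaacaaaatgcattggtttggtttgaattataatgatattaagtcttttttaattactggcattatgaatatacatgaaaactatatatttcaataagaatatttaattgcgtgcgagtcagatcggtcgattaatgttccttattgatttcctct
A match is a description of the letters in these windows and does not show that a factor was bound.

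Candidates upstream of non-divergent starts became peaks more often than candidates elsewhere, and less often than those between divergent starts. Of 6717 such candidates 498 were in the pooled list, 7.41% (6.81 to 8.07), against 1.66% of all 132019 candidates. Between divergent starts 306 of 1575 candidates were called, 19.4% (17.5 to 21.5), which was higher (log2 ratio of members to divergent -1.39, adjusted p = 8.4e-41, two-sided Fisher's exact test). Within 500 bp downstream of a start 273 of 11369 were called, 2.4% (2.14 to 2.70), so the upstream share was 3.09-fold higher (adjusted p = 7.3e-56, same exact test). All candidates outside these 3 classes were called in 0.998% of cases. The share kept its direction in each replicate's own list. In replicate 1 7.08% of upstream candidates were called against 1.63% of all its candidates, and in replicate 2 4.05% against 0.726%. Fisher's exact test treats neighbouring peaks as independent, so these p-values speak of the lists alone and not of how embryo batches vary.

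Summits favoured the stretch 51 to 250 bp upstream, which held 309 of the 498 members (62.0%) and 42.6% of failing candidates. The call share was 5.43% (4.15 to 7.07) at 1 to 50 bp, reached 11.6% (9.46 to 14.0) at 151 to 200 bp and fell to 2.14% (1.23 to 3.71) at 451 to 500 bp. The members' median distance was 176 bp (quartiles 103 and 269), against 210 bp in failing candidates. Median signal was highest at 151 to 200 bp, 121, against 78.2 in the bin nearest the start and 78.1 in the farthest. It did not follow the call share throughout, with 84.1 at 51 to 100 bp, 96.3 at 201 to 250 bp and 102 at 351 to 400 bp. Downstream of the start the call share was highest in the first 2 bins, 5.67% and 5.61%, and stayed under 1.5% from 151 bp on.

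**Figure D1:**
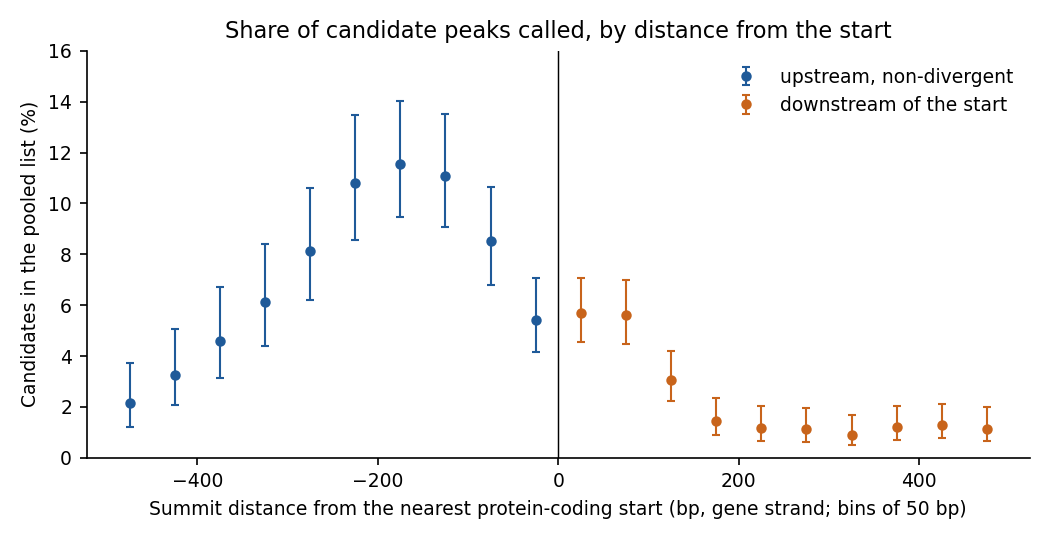
Share of candidate regions that became peaks of the pooled list (%, vertical axis) against the summit's distance from the nearest protein-coding start (bp, gene strand, bins of 50 bp), with 95% Wilson intervals. Upstream, non-divergent candidates peak at 11.6% in the bin from 151 to 200 bp, while downstream candidates start at 5.67% and fall to about 1%.

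Peak signal, a score from the authors' peak caller with no stated unit, ran from 2.71 to 817 among the members with a median of 94.4 (quartiles 70.3 and 153). Of the members, 295 (59.2%, 54.9 to 63.5) stood at or above the median of the pooled list, 82.6. Downstream peaks did so in 30.4% of cases (25.2 to 36.1), a lower share (log2 ratio 0.96, Fisher's exact test with adjusted p = 1.0e-13). For divergent peaks the share was 63.4% (57.9 to 68.6) and the difference did not pass (log2 ratio -0.10, adjusted p = 0.26, same exact test). The members included 3 of the 10 strongest peaks and 33 of the 100 strongest. At the other end, 15 members had a score under 20.8, the median of failing candidates, and each of these 15 overlapped another peak of the pooled list. Among the remaining 483 members 22 did so.

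Replicate support was uneven. A member counted as found in a replicate when at least 1 bp of it overlapped a peak of that replicate's own list. In these terms 173 members (34.7%, 30.7 to 39.0) were in both lists, 194 in replicate 1's only, 28 in replicate 2's only and 103 in neither. Downstream peaks were in both lists in 16.1% of cases (12.2 to 20.9), fewer than the members (log2 ratio 1.11, Fisher's exact test with adjusted p = 7.6e-08). Among peaks at or above the list's median signal the shares were 57.3% in members and 45.8% in downstream peaks, and this difference no longer passed (log2 ratio 0.32, adjusted exact p = 0.12). Divergent peaks were in both in 43.1% (37.7 to 48.7), more than the members (log2 ratio -0.31, adjusted p = 0.024, same exact test). With the starts limited to each gene's 5′ end the difference from divergent peaks was no longer past the threshold (log2 ratio -0.14, adjusted p = 0.44, exact test), nor was it under 5 other settings.

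The members supported by both replicates were the strong ones. Their median signal was 183, against 84.4 for those in replicate 1's list only, 83.6 for replicate 2's only and 63.6 for those in neither. In 4 groups of about 125 members from weakest to strongest signal, 2.4%, 1.61%, 37.1% and 97.6% of members were in both lists. The pooled list was made from both replicates, so this link of signal and support is partly built in. In replicate 1's ranked list 496 members had a candidate, with scores up to 572 and a median of 59.0. In replicate 2's list 484 had one, with scores up to 389 and a median of 37.1. The score was higher in replicate 1 for 430 of the 482 members with both, and depth is unknown, so the levels of the replicates are not compared further. Across these members the scores correlated with a Spearman rho of 0.65 and a Pearson r of 0.70 on log2(score + 1), a description over regions of the same 2 libraries.

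**Figure D2:**
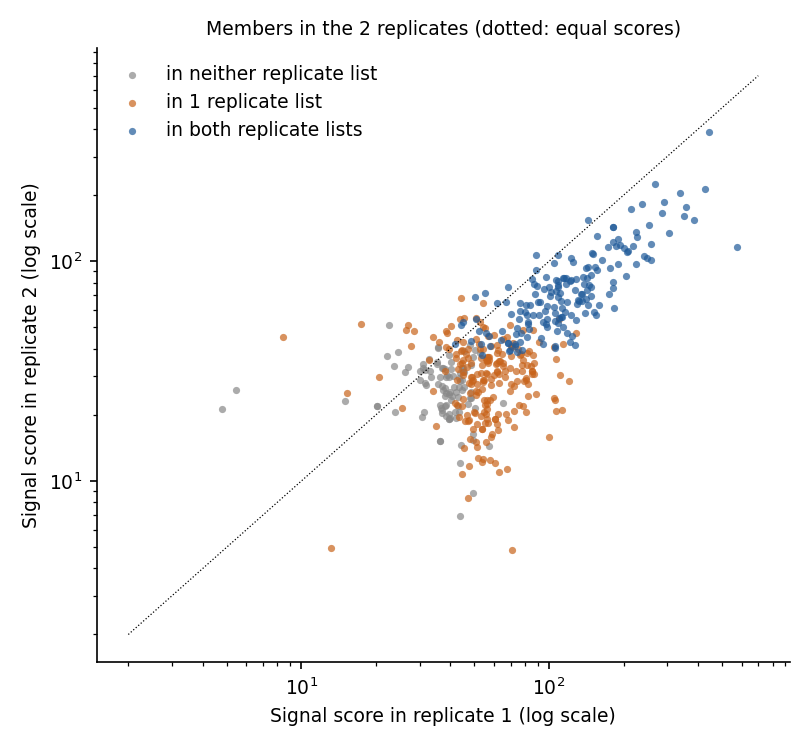
Signal score of each member in replicate 1 (horizontal axis, log scale) and replicate 2 (vertical axis, log scale), coloured by its presence in the replicates' own lists, with a dotted line at equal scores. Most points lie under the line, and the members found in both lists form the upper right part, where their median pooled score is 183.

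The strongest members lay at genes of varied function. CG14100 had a signal of 817 in the pooled list, 441 in replicate 1 and 389 in replicate 2, with the summit 95 bp upstream (chr3L:19590494-19590729). Both replicates placed it among their 6 strongest candidates. Dll, which encodes a homeodomain protein needed for limbs, scored 697 in the pooled list, 572 in replicate 1 and 116 in replicate 2, 80 bp upstream (chr2R:24814575-24814866). It ranked second in replicate 1 and 96 in replicate 2, and its window had a GC content of 65.2% against a member median of 37.8%. CG18549 had 629 pooled, 425 in replicate 1 and 213 in replicate 2, 118 bp upstream (chr3R:12449063-12449297).

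Of the next members, px, a gene of wing vein patterning, had a signal of 551 with 338 and 204 in replicates 1 and 2. CG1635 had 540 with 357 and 177, and Fkbp14, which encodes a peptidyl-prolyl isomerase, 538 with 385 and 155. RluA-1, named for RNA pseudouridine synthases, had 519 with 350 and 162, and CG1888 489 with 268 and 225. At all of these genes the peak was in the lists of both replicates. eIF6, a ribosome biogenesis and translation factor gene, had 481 with 292 and 187, and Gapdh2, a glycolytic enzyme gene, 451 with 285 and 166. Rtnl1, the gene of an endoplasmic reticulum shaping reticulon, had 425 with 238 and 183. Replicate 1 gave the higher score at each of the 12 strongest members.

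The odd-skipped family genes all had members: of 4 genes with an upstream candidate, 4 had a peak there, beside a background of 9.43% of the 4865 genes with such a candidate. With 4 genes this is a description. The bowl gene itself had a peak 228 bp upstream with a signal of 431, and 306 and 135 in replicates 1 and 2, and a weaker one at 344 bp with 57.8, 20.6 and 29.7. The embryos carried a bowl transgene, and the lists cannot tell its promoter from the chromosomal one. At drm, a gene of gut patterning, the signal was 223 with 142 and 73.8, 174 bp upstream. At odd, a pair-rule gene, it was 86.4 with 69.7 and 25.7, and at sob 77.1 with 70.8 and 4.87. The peaks of bowl (the stronger) and drm were in both replicate lists, while those of odd and sob were in replicate 1's only.

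Cytoplasmic ribosomal protein genes had members at 7 of the 15 with an upstream candidate, 46.7% against the 9.43% over all genes. The 7 summits lay close to the start, 23 to 118 bp upstream, and their signals ran from 78.2 to 120. The strongest were RpL24 with 120 (87.3 in replicate 1 and 34.4 in replicate 2), RpL22 with 111 (52.4 and 52.8) and RpS27A with 109.9 (64.4 and 37.8). Only RpL27, with 107 pooled, 64.4 in replicate 1 and 47.9 in replicate 2, was in both replicate lists. Translation factor genes had members at 4 of 18 (22.2%), led by eIF6 and by eEF1gamma, an elongation factor subunit gene, with 177 pooled and 89.0 and 91.2 in replicates 1 and 2. The next was eEF2, the translocation factor gene, with 75.7 (50.6 and 25.7). No member lay at the mitochondrial ribosomal protein (4 genes with a candidate), proteasome (7), respiratory chain (23) or aminoacyl-tRNA synthetase (4) lists, which at these sizes is not read as a difference from the 9.43% over all genes. The list of aminoacyl-tRNA synthetases was matched by 3-letter symbols and so missed beta-PheRS, which has a member with a signal of 76.0. JAK/STAT genes had 0 of 5, with a peak of some class at 3 of the 10 genes listed. Polycomb and trithorax group genes had 0 of 11, although 10 of the 32 genes on that list had a peak of some class, and one at ph-p lay 501 bp upstream with a signal of 696.

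Of the signalling lists, Wnt genes had members at 5 of the 15 with an upstream candidate, 33.3% beside the 9.43% over all genes. The strongest were at sgg, the Shaggy kinase gene, with 194 pooled and 130 and 63.6 in replicates 1 and 2, and at nkd, a feedback inhibitor gene, with 177 and 116 and 58.7. The receptor gene fz2 had 72.0 and the ligand gene wg 45.7. Both were in replicate 1's list only and had no candidate in replicate 2. Notch pathway genes had 4 of 15 (26.7%), with the corepressor gene gro at 183 (100.3 and 76.7) and numb, whose product blocks Notch signalling, at 178 (128 and 54.3). The third was E(spl)mbeta-HLH, a Notch target gene, at 89.5 (59.3 and 24.1). Hedgehog genes had 3 of 5 (60%): rdx, a ubiquitin ligase adaptor gene, with 91.8, the receptor gene ptc with 77.2 and the glypican gene dally with 77.1. Receptor tyrosine kinase genes had 2 of 16 (12.5%), with 2 members each at pnt, which encodes an Ets factor (84.6 and 77.4 pooled), and spi, the EGF ligand gene (81.2 and 8.31 pooled). The spi members share 1 replicate 2 candidate. Dpp genes had 1 of 11 (9.09%), at shn with 58.1. The shares of the last 2 lists were near that over all genes. The signalling members at sgg, nkd, gro, numb and ptc were in both replicate lists, and no other was.

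Among the patterning and tissue lists, read against the same 9.43%, the nervous system list had members at 5 of 22 genes with a candidate (22.7%), led by elav, the pan-neuronal RNA-binding protein gene, with 298 pooled and 206 and 85.5 in replicates 1 and 2. It also held numb, and robo2, an axon guidance receptor gene, with 96.0 (78.7 and 35.4). Muscle and mesoderm genes had 3 of 25 (12%), all in both replicate lists: the T-box gene org-1 with 223 (139 and 79.2), the heart gene tin with 194 (135 and 70.8) and the titin-like gene sls with 131 (76.3 and 59.2). Segmentation genes had 3 of 18 (16.7%), at odd, ftz-f1 (82.8) and wg. Nuclear receptor genes had 3 of 15 (20%), at tai, a coactivator gene (87.4), ftz-f1 and the ecdysone receptor gene EcR (63.2). The EcR member had no candidate in replicate 2 and was in neither replicate list. Hox and cofactor genes had 2 of 11 (18.2%), at tio (93.4) and pb (85.2), and cell cycle genes 2 of 11 (18.2%), at Dp, an E2F partner gene (121), and fzr (74.6). The forkhead family had 1 of 9 (11.1%), at CHES-1-like with 81.2 (60.2 and 19.2), and trafficking genes 1 of 18 (5.56%), at the GTPase gene Rab5 with 96.5 (74.6 and 28.5). None of the members from segmentation to trafficking genes was in both replicate lists. These shares rest on a few genes each and were not tested.

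Several genes had more than 1 member. Of the 459 genes, 426 had 1, 27 had 2 and 6 had 3. Ptpmeg2, a tyrosine phosphatase gene, had 3 strong ones with signals of 249, 231 and 195, each in both replicate lists and 167, 182 and 190 bp upstream of 3 different starts. Rtnl1 had 425, 159 and 75.5 at 3 starts. The cAMP phosphodiesterase gene dnc had 210, 109 and 61.5, and Moe, the moesin gene, 157, 74.9 and 67.6. Drat had 95.9, 54.8 and 7.30, and pdgy 95.2, 64.8 and 13.5. The members of these last 2 include some of the weak peaks that overlap another, and their values in a replicate can come from 1 shared candidate.

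Many starts were internal. Of the members, 202 (40.6%, 36.3 to 44.9) lay upstream of a start inside their own gene, against 31.3% of failing candidates, and 33 (6.63%) upstream of a start inside another gene, against 13.6%. A further 181 (36.3%) followed a gene on the same strand at a median gap of 753 bp, against 38.3% and 658 bp in failing candidates. For 82 (16.5%) the nearest gene upstream was on the opposite strand, at a median gap of 4815 bp, against 16.7% and 3595 bp. The rule leaves out summits between divergent starts at most 1000 bp apart, which bears on the gap to genes on the opposite strand. By annotation 259 summits (52.0%) were intergenic, 198 (39.8%) in introns, 25 (5.02%) in 5′ UTRs and 12 (2.41%) in 3′ UTRs. In failing candidates these shares were 47.2%, 34.4%, 4.35% and 4.55%. In coding sequence lay 4 (0.803%, 0.313 to 2.05), against 9.56% of failing candidates (8.85 to 10.3). A tRNA, snRNA, snoRNA or rRNA gene was within 500 bp of 3 members (0.602%), beside 0.532% of failing candidates.

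Peaks lay close to both limits of the class. Just inside 500 bp were t-cup at 498 bp, with a signal of 72.5, and lawc at 494 bp with 138. Just outside were ph-p at 501 bp with 696 and CG17896 at 508 bp with 253. The members with the shortest divergent gap over 1000 bp were Eno (1015 bp, signal 206) and SLC5A11 (1039 bp, 149). The nearest peaks left out as divergent were hts (999 bp, 77.5) and Gnpat (994 bp, 83.2).

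Words of known promoter factors set the members apart from divergent peaks before GC content was taken into account. Within 100 bp of the summit, on either strand, GAGAGAG lay at 63 of 498 members (12.7%, 10.01 to 15.9) and at 4 of 306 divergent peaks (1.31%, 0.509 to 3.31), a 9.68-fold difference (adjusted p = 1.5e-08, two-sided Fisher's exact test over 24 comparisons). The related word AGAGAGCG lay at 8.23% against 0.654% (12.6-fold, adjusted p = 4.4e-06, exact test), and 24 of its 41 members also held GAGAGAG. The CA repeat CACACACA lay at 5.62% against 0.654% (8.60-fold, adjusted p = 7.4e-04, exact test). The DRE word TATCGATA went the other way, 2.81% (1.68 to 4.66) against 7.84% (5.33 to 11.4) (log2 ratio -1.48, adjusted p = 0.0059, exact test). Also lower in the members were TATAAA, the TATA box word, 30.3% against 45.1% (adjusted p = 2.0e-04, exact test), the homeodomain core TAATTA, 13.5% against 21.2% (adjusted p = 0.013), and the E-box CAGCTG, 8.63% (6.47 to 11.4) against 15.03% (11.5 to 19.5, adjusted exact p = 0.018). The motif 1 word GGTCACAC, at 1.20% against 3.59%, missed the threshold (adjusted exact p = 0.060). ACAGTGG, at 9.44% against 8.17% (5.59 to 11.8), did not differ detectably (log2 ratio 0.21, adjusted exact p = 0.70). Words were recomputed under 13 alternatives, 1 of them chosen after seeing the data. Of these, the call was lost under 7 for CAGCTG, 6 for TAATTA, 5 for TATCGATA and 3 for TATAAA. It was lost under 5 of 11 for CACACACA and 2 of 12 for AGAGAGCG.

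Against downstream peaks 5 words were higher and 1 lower. GAGAGAG lay at 6.59% of downstream peaks (4.21 to 10.2, log2 ratio 0.94, Fisher's exact test with adjusted p = 0.021). ACAGTGG lay at 9.44% of members (7.17 to 12.3) and 4.76% of downstream peaks (2.80 to 7.98, adjusted exact p = 0.046), and AGAGAGCG at 8.23% and 4.03% (adjusted exact p = 0.046). ACAGTGG came from a ranking over all peaks of these data, and the panel was chosen with earlier results known. The p-values of words, here and above, are not independent of that choice. TATAAA was at 30.3% and 16.8% (adjusted exact p = 2.0e-04) and TAATTA at 13.5% and 5.49% (adjusted exact p = 0.0022). CACACACA was at 5.62% and 11.4% (log2 ratio -1.01, adjusted exact p = 0.018). Of the same 13 alternatives, ACAGTGG lost its call under 8 and AGAGAGCG under 10. In replicate 2's list ACAGTGG turned in direction (log2 ratio -0.19, adjusted exact p = 0.97). GAGAGAG lost its call under 6, TATAAA and CACACACA under 5 each, and TAATTA under 4. The odd-skipped core CAGTAGC, at 3.21% of members (1.99 to 5.15), did not differ detectably from 1.10% (0.374 to 3.18) of downstream or 1.961% (0.902 to 4.21) of divergent peaks (adjusted exact p = 0.12 and 0.47).

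GC content moved with these classes. The median over the summit and 100 bp on either side was 37.8% in members, 34.8% in divergent peaks, 46.3% in downstream peaks and 44.8% in failing candidates. Among windows between the quartiles of the members, 32.3% to 46.3% GC (255 members), 0 of the 24 comparisons passed Fisher's exact test after Benjamini-Hochberg adjustment, while 13 had passed in all windows, and 6 had an unadjusted exact p under 0.05. There GAGAGAG was at 8.63% of members and 2.33% of divergent peaks (log2 ratio 1.89, adjusted exact p = 0.15), and TATCGATA at 4.31% and 9.30% (log2 ratio -1.11, adjusted exact p = 0.15). These windows also hold fewer regions, and the part of GC content in the differences was not tested further. GAGAGAG against divergent peaks was past the threshold under the other 11 alternatives that gave it a ratio, including each replicate's own list.

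Set beside failing candidates, as a description, the members held ACAGTGG 2.66-fold as often (9.44% against 3.55%). The word was picked from the peaks of these data, so a higher share in peaks than in failing candidates was favoured in advance. For the GAGA factor repeat the ratio was 1.71-fold (12.7% against 7.38%, 6.76 to 8.06), and for the related 8-base word it was 2.14-fold. Windows of the same length were also placed at all 13216 non-divergent starts, centred 176 bp upstream, the members' median distance. There the shares were 2.81% for ACAGTGG and 7.17% for the repeat. Of the peaks outside the 3 promoter classes 12.7% (10.8 to 14.7) held ACAGTGG, beside 9.44% of the members (7.17 to 12.3), and this difference was not tested. Its share in divergent peaks was 8.17% (5.59 to 11.8). In 162 members no word of the panel was found.

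**Figure D3:**
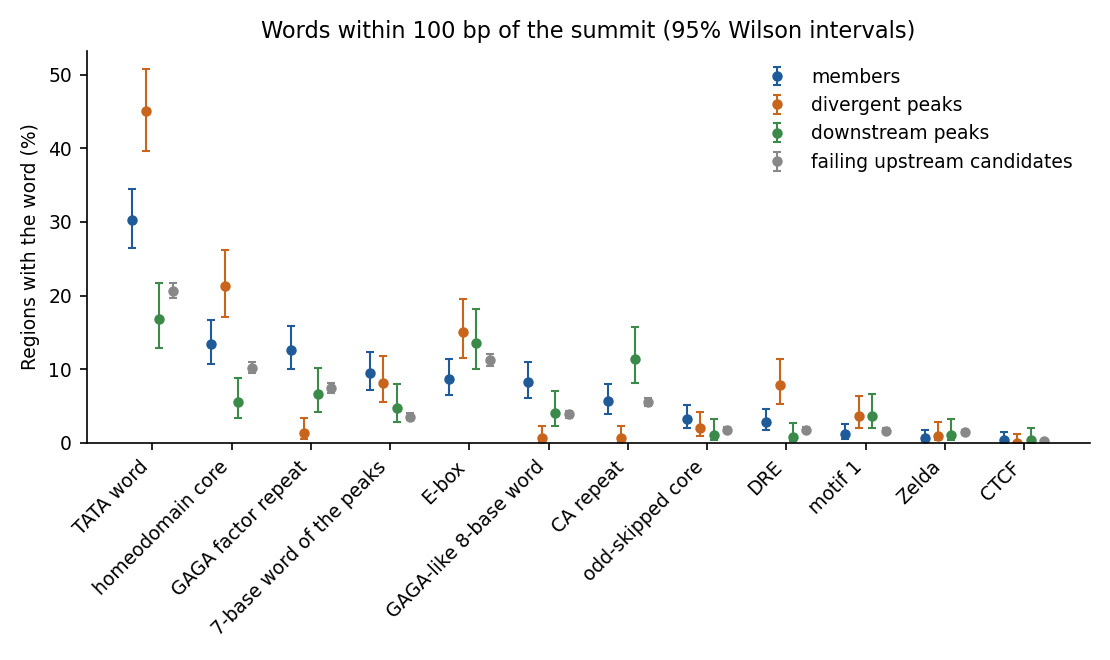
Share of regions with each of 12 words within 100 bp of the summit (%, vertical axis) in members, divergent peaks, downstream peaks and failing upstream candidates, with 95% Wilson intervals. The 7-base word of the peaks is ACAGTGG and the 8-base one AGAGAGCG. The GAGA factor repeat is at 12.7% of members and 1.31% of divergent peaks, and the DRE at 2.81% and 7.84%.

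Within 100 bp of the summit, 45 members had ACAGTGG only, 61 had GAGAGAG only, 2 had both and 390 had neither. Whether the words avoid each other was not tested. Within 200 bp further members held both, among them Rtnl1, MFS10 and CG31808. The words differed along the range of signal. ACAGTGG was at 1.6%, 9.68%, 9.68% and 16.8% of members in the 4 groups from weakest to strongest, and GAGAGAG at 16%, 13.7%, 8.87% and 12%. Median signal was 117 with ACAGTGG and 90.2 without, and 85.9 with GAGAGAG and 95.7 without. GC content fell across the same groups, from a median of 44.3% to 33.8%, and its part in these shares was not tested. Of the 47 members with ACAGTGG 23 were in both replicate lists, and of the 63 with GAGAGAG 20.

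**Figure D4:**
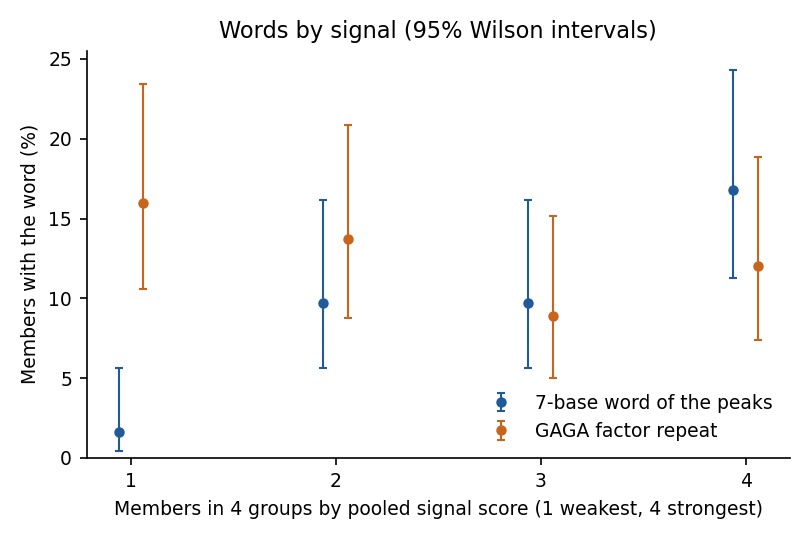
Share of members with each word within 100 bp of the summit (%, vertical axis) in 4 groups by pooled signal score, 1 being the weakest, with 95% Wilson intervals. The 7-base word ACAGTGG goes from 1.6% to 16.8%, and the intervals of the GAGA factor repeat overlap throughout.

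Besides Btk, with a signal of 400 (253 in replicate 1 and 146 in replicate 2), the strongest members with GAGAGAG were at px and at TRAM, with 340 (218 and 117). The strongest with ACAGTGG were at CG1635, RluA-1 and Rtnl1. For TATCGATA they were at Alg3, a glycosylation enzyme gene, with 296 (144 and 153), at CG11151 with 188 (118 and 64.9) and at eEF1gamma. Of the 6 members with GGTCACAC the strongest were at RpL27, CG34195 (84.4) and beta-PheRS (76.0), a phenylalanyl-tRNA synthetase gene. The summits of the TATCGATA members lay at a median of 65.5 bp upstream and those of the GGTCACAC members at 43 bp, closer to the start than the 164 bp of ACAGTGG and the 161 bp of GAGAGAG members.

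The direction of ACAGTGG relative to the gene depended on its side of the summit. Within 200 bp of the summits 71 members held 95 copies. Read along the word, the summit lay past its GTGG end in 81 of 95 copies, 85.3% (76.8 to 91.0), at a median distance of 84 bp, as in the sites printed above. In failing candidates this was so in 208 of 400, 52.0% (47.1 to 56.9). Copies on the gene's strand (44) were at a median of 270 bp upstream of the start (quartiles 362 and 221), and copies on the opposite strand (51) at 94 bp upstream (151 and 67.5). Member summits lay at a median of 176 bp, between these 2 positions. For GAGAGAG, with 343 copies in 140 members, the same share was 60.1% (54.8 to 65.1), and overlapping repeats count more than once.

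Some members held 2 copies of ACAGTGG that faced each other across the summit, as printed for CG1635, RluA-1 and Rtnl1. Of the 71 members with a copy within 200 bp, 22 had more than 1, and 17 had such a facing pair. No member had 2 copies that pointed away from each other across the summit. The centres of the facing copies were 156 to 255 bp apart, with a median of 184 bp. Of the 373 failing candidates with a copy, 27 had more than 1 and 3 had copies pointing away. A facing pair lay at 15, 4.02% against 23.9% in members, with a median spacing of 242 bp. Among regions with more than 1 copy, facing pairs were at 17 of 22 members and 15 of 27 failing candidates. The contrast over all regions with a copy thus also holds how often a second copy was present. Besides the 3 printed genes, facing pairs lay at PAN3, Ptpmeg2, CG11151, RapGAP1, Glyp, Kal1, CG5910, a second Rtnl1 start, CG42327, Pde6, CG8034, CngA, Vinc and svr. The pairs were looked for after the strand pattern was seen, and no test was made.

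**Figure D5:**
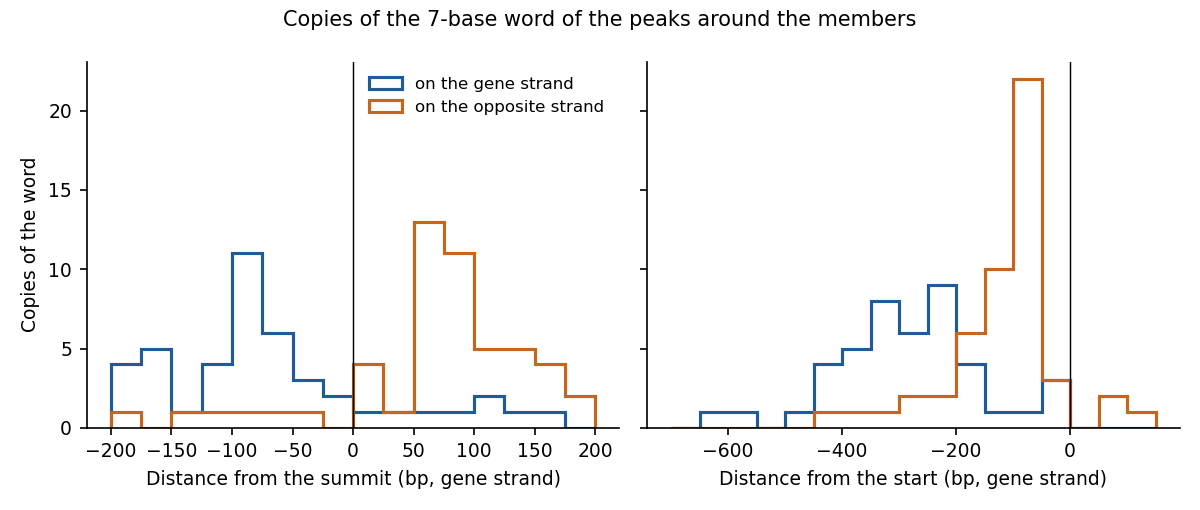
Number of copies of ACAGTGG within 200 bp of member summits, by distance from the summit (left, bins of 25 bp) and from the start (right, bins of 50 bp), both in bp on the gene's strand. The 44 copies on the gene's strand lie mostly before the summit, and the 51 on the opposite strand mostly between summit and start, at a median of 94 bp upstream of the start.

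The letters just before the word were also uneven. G stood 2 bases and C 1 base before ACAGTGG in 60 and 62 of the 95 copies, and the longer word GCACAGTGG made up 46 of 95, 48.4% (38.6 to 58.3), against 107 of 400, 26.8% (22.6 to 31.3), in failing candidates. GC content along the gene's strand was lowest just before the summit, 36.2% over the 50 bp upstream of it, and rose to 47.0% at 100 to 150 bp towards the gene. In failing candidates it was 44.7% and 44.1% in the same windows.

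At the starts themselves 2 core promoter words were looked up. TATAAA lay 20 to 40 bp upstream of 14 of the 485 member starts, 2.89% (1.73 to 4.79), beside 7.09% (6.66 to 7.54) of all 13216 non-divergent starts, which include the member starts. The initiator letters TCAGT lay within 5 bp of 79 member starts, 16.3% (13.3 to 19.8), beside 10.1% (9.64 to 10.7). Both were looked up after other values had been seen, on the gene's strand, and are descriptions without a test.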

How the data were processed

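Bowl-eGFP ChIP-seq of 2 biological replicates (1 group) was read from peak lists on dm6, the assembly given per the labels. The labels state sonication with a size range of 200 to 800. No aligner, peak caller or version is named in the labels used here. The signal score of each region and its −log10 IDR were used as deposited by the authors, who made a ranked and a thresholded list for each replicate and for the pooled data. Read depth is unknown, and the control was not analysed here. Of 2287 pooled candidates past a −log10 IDR of 2, 89 are missing from the pooled list, 16 of them upstream of non-divergent starts.

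Summits were placed with transcript starts of protein-coding genes (Ensembl, BDGP6.54). Sequence came from the RefSeq Release 6 genome, where 99.8% of 30593 annotated start codons read ATG. Each word was searched for on both strands, up to 100 bp from a summit. Classes were compared by Fisher's exact test, two-sided, with p-values adjusted by Benjamini-Hochberg (3 call shares, 6 shares of signal and support together, 24 word comparisons) at 0.05, with SciPy 1.17.1, pandas 2.3.3 and NumPy 2.4.6 in Python 3.11.15, tested on simulated data. Wilson intervals (95%) cover counting error over regions only. Regions can lie close together and are not replicates of a condition. A member's replicate score is that of the nearest summit in the replicate's ranked list, and 18 members share a replicate 2 candidate.

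The members, words and gene lists were chosen with earlier results of these data known. Words and lists were written from memory, and 8 listed names matched no gene. The genes named are the 12 strongest members, the genes with most members, the 3 strongest members of each list (all of them for the odd-skipped family), the nearest peaks on either side of each limit, and the 3 strongest members with each of ACAGTGG, TATCGATA, GGTCACAC and GAGAGAG, besides those whose sequence is printed. The genes with facing pairs were named after their values were seen. Base composition, groups by signal, flanking letters, facing pairs and words at starts were added after values were seen. Sequence of 1 chromosome arm is not reported here, so the printed sites are the strongest members elsewhere. Windows of at least 150 bases were printed only where no annotated UTR was met. The alternatives tried are in the closing section.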

Additional observations from a re-analysis of the deposited data

How the results depend on the processing

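Results were recomputed under 13 other settings, and under 1 chosen after seeing the data (peaks that overlap a stronger peak left out, 480 members). The 11 of these that bear on the call shares left each of the 3 with its direction and its side of the threshold (log2 ratio -1.92 to -0.65 against divergent, 1.24 to 2.87 against downstream and 1.963 to 2.85 against all other candidates). The member count was 203 in replicate 2's list and 431 in replicate 1's, and 295 when limited to the stronger 50% of peaks. It ran from 334 to 616 under the remaining ones. The signal share against divergent peaks, not past the threshold, changed sign with a divergent gap of 2000 bp (log2 0.055) and in the conservative list (0.015), and was -0.0698 and 0.15 in the lists of replicates 1 and 2. Replicate support against divergent peaks lost its call with gene ends as starts (log2 -0.14), starts of all biotypes (-0.20), a limit of 250 bp (-0.27), a gap of 2000 bp (-0.16), the conservative list (-0.072) and the stronger 50% of peaks (-0.19). Among the last, support also lost its call against downstream peaks (0.32) and all other peaks (0.027). Words past the threshold numbered 13, and 4 with gene ends as starts, 5 among the stronger 50%, 3 within 50 bp of the summit, 0 in the middle GC range (6 at an unadjusted p under 0.05), and 8 and 1 in the lists of replicates 1 and 2. The log2 ratio of ACAGTGG against downstream peaks was 1.16 in replicate 1's list and -0.19 in replicate 2's, where the direction was opposite. The causes of these changes were not tested. Shorter lists and windows also hold fewer regions or copies. No paired analysis was possible because there is 1 group. Precision is limited by 2 replicates and by lists without read counts.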
